A study of Mus musculus with 6 samples.

Results

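The 43 genes described here encode the machinery that makes and loads peptides for MHC class I molecules. They comprise 16 class I presentation genes and 27 proteasome genes, taken by name from a list and found in a deposited table of 43629 mouse gene IDs. The presentation genes are the light chain gene B2m, 6 heavy chain genes, 8 genes of peptide transport, trimming and loading, and the transcriptional activator Nlrc5. The proteasome genes are the 14 constitutive subunits of the 20S core, the 3 interferon-inducible catalytic subunits, the 6 ATPases of the 19S cap and 4 activators. All 43 were in the table, and 37 had enough reads for a test. H2-K1, H2-T23, H2-Q4, Tap1, Psmb8 and Psmb9 did not.

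The study used the mouse neuroblastoma cell line M1. Cells carrying a hairpin against IGF2BP1 (shIGF2BP1) gave 3 libraries, and cells carrying a non-targeting hairpin (shNT) gave 3 libraries. IGF2BP1 is an RNA-binding protein that stabilises many messenger RNAs. Hairpins were induced in both groups with 4 to 6 µg/ml of doxycycline for 6 days, so every library comes from doxycycline-treated cells with a hairpin. The labels give shNT cells the genotype WT and shIGF2BP1 cells a knockdown of IGF2BP1. They do not say whether each line was 1 clone, whether replicates were separate cultures or how many hairpins were used, so p-values measure only the spread between these libraries.

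MHC class I molecules hold short peptides at the cell surface for inspection by cytotoxic T cells. The proteasome cuts cytosolic proteins into peptides, the TAP transporter carries them into the endoplasmic reticulum, and a loading complex of tapasin, calreticulin and ERp57 fits them to a heavy chain paired with beta-2-microglobulin. Interferon exchanges the 3 catalytic subunits of the proteasome for the immunoproteasome subunits encoded by Psmb8, Psmb9 and Psmb10, and NLRC5 drives transcription of class I genes. Neuroblastoma is known in humans for low surface class I.

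Each library held 25119655 to 35373076 counts. Replicates were no closer to their own group than to the other one in 2 of the 3 shNT libraries, whose mean correlation over log2 counts was 0.961 and 0.966 with their own group against 0.969 and 0.971 with the other. Igf2bp1 itself was at 2.56, 0.993 and 11.3 CPM (counts scaled to a common library total) in the libraries labelled shIGF2BP1, against 1.25, 5.14 and 6.08 CPM in those labelled shNT. The groups overlapped, and the log2 fold change was 0.25 ± 0.79 (SE, n = 3 against 3, edgeR adjusted p = 0.966). Transcript levels therefore do not show the knockdown the label names, and every direction given here is between libraries as labelled. Of the 14 sympathetic and neuroblastoma markers, Th, Dbh and Chga had 0 counts in every library, while Hand2, a sympathetic lineage factor, stood at 429 to 457 CPM in shIGF2BP1 and 257 to 480 CPM in shNT libraries. Of 8 T and NK cell markers, 7 had 0 counts in all libraries.

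The sequences shown first are the start regions of the genes on which the account of levels turns. By their RefSeq starts, Psmb9 and Tap1 are transcribed away from each other from 1 short interval. The Psmb9 gene as annotated for the counts extends over that interval and overlaps the Tap1 start. Both genes were at or near 0 counts apart from 47 counts of Tap1 in 1 shNT library. B2m is the light chain gene and H2-D1 the most abundant of the 6 heavy chain genes taken as members, while H2-K1, a close relative of H2-D1, was nearly absent. RefSeq sequences on GRCm38.p6 are given 5′ to 3′ on the strand of the named gene, and capitals mark matches to the motifs searched.
Psmb9–Tap1 interval, chr17:34187331-34187555, plus strand: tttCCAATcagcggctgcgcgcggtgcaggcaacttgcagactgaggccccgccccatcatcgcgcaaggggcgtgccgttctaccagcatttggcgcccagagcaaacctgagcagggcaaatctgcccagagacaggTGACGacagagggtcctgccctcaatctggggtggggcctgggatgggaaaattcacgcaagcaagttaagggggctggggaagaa
B2m, chr2:122147437-122147686, plus strand: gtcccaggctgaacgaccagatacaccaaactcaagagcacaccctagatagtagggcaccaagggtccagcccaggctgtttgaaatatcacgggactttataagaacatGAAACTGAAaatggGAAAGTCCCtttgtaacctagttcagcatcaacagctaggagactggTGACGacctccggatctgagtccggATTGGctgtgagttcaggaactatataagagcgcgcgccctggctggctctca
H2-D1, chr17:35262844-35263093, plus strand: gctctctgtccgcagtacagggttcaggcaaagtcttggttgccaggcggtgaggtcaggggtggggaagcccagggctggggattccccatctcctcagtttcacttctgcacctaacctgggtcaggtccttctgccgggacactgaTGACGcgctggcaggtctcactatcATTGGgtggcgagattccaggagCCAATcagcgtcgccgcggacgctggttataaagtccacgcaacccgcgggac
H2-K1, chr17:34000348-34000597, minus strand: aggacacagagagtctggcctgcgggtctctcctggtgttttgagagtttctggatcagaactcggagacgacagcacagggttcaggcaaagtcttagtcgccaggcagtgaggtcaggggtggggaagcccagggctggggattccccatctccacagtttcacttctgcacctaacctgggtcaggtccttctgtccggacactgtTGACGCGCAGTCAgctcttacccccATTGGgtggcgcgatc

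The 5 motifs were searched on both strands in the 250 bases before each RefSeq start. They were GAAANNGAA (the core of an interferon-stimulated response element), GGGANNTTC (a kappa B site core), TGACG (an X2 box or cAMP response core), CCAAT (a Y box) and TGACNNNGC (an antioxidant response element core, which can overlap TGACG and does so by 1 base in H2-K1). B2m held the interferon element from base 139 to 131 before its start, a kappa B core from 125 to 117, TGACG from 78 to 74 and the Y box from 53 to 49. H2-D1 held TGACG from 101 to 97 and Y boxes from 76 to 72 and from 53 to 49. Its RefSeq start lies downstream of the annotated gene start, so its window lies inside the gene annotated from chr17:35262730. The letters GAAANNGAA and GGGANNTTC were not in its window, and interferon or kappa B elements spelled otherwise were not searched, so the missing matches do not speak to such elements there. H2-K1, for which the table holds 2 start sites and the one nearest the annotated gene start was used, held TGACG from 41 to 37 and a Y box from 16 to 12. Its window and that of H2-D1 aligned over 177 columns with 161 identical, or 91%, bases 178 to 2 of H2-K1 lying against bases 238 to 62 of H2-D1. Motif positions in H2-D1 and H2-K1 thus count from starts placed differently on the aligned sequence. The Psmb9–Tap1 interval held a Y box from 222 to 218 and TGACG from 86 to 82 before the Tap1 start.

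A promoter window was found for 36 of the 43 genes. CCAAT was in 12 of 13 class I presentation promoters, or 92.3%, in 10 of 23 proteasome promoters, or 43.5%, and in 34.3% of all 27025 promoters of the table. TGACG was in 9 of 13 presentation promoters, or 69.2%, in 10 of 23 proteasome promoters, or 43.5%, and in 17.8% of all. The interferon core was in 4 of 13 presentation promoters (B2m, H2-T22, H2-T23 and Erap1), in 1 of 23 proteasome promoters (Psmb3) and in 7.16% of all. The antioxidant core was in 4 of 13, in 3 of 23 (Psmb5, Psmb6 and Psmc6) and in 10.1% of all. The kappa B core was in 1 of 13, in 1 of 23 and in 3.22% of all. For each motif only the letters given were searched, in H2-K1 and every other promoter. Elements spelled otherwise are therefore not counted in these shares. The Tap1 and Psmb9 windows share the 225 bases of the printed interval, so its 1 CCAAT and 1 TGACG are counted in both groups. The heavy chain genes among the 13 are related to each other, so these promoters are not independent of each other. These matches describe letters and no binding was measured.

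The light chain dominated the class I transcripts. Levels per length are given as fragments per kilobase (FPKM), computed as CPM divided by the length of all annotated exons of each gene merged. B2m, which encodes the light chain needed for surface class I, stood at 674, 842 and 674 FPKM in shIGF2BP1 libraries, against 988, 821 and 704 FPKM in shNT libraries. Its mean level over the 6 libraries, 784 FPKM, was above that of 99.8% of the genes tested. The groups overlapped. In bulk RNA, fewer cells with a transcript and less of it per cell cannot be told apart.

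H2-D1 (chr17:35262730-35267499, plus strand), which encodes a classical heavy chain that presents peptides to CD8 T cells, had 42.1, 72.6 and 37.8 FPKM in shIGF2BP1 libraries, against 61.4, 37.2 and 44.8 FPKM in shNT libraries. One library of each group was high and the ranges overlapped. B2m exceeded H2-D1 in level by 11.6 to 17.9 times in shIGF2BP1 libraries and by 15.7 to 22.1 times in shNT libraries. H2-M3, a non-classical heavy chain that presents formylated peptides, had 19.5, 31.9 and 25.6 FPKM in shIGF2BP1 libraries, against 31.0, 19.7 and 24.7 FPKM in shNT libraries. H2-T22, a non-classical chain recognised by some gamma delta T cells, had 8.29, 9.11 and 6.81 FPKM in shIGF2BP1 libraries, against 11.2, 7.35 and 4.70 FPKM in shNT libraries. In both genes the groups overlapped. Of the 53-base words in H2-T22 transcripts, 51.6% were shared with another gene, most with H2-T10, so its level is uncertain. For H2-D1 that share was 11%, and for B2m it was 0.

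The other classical chain was close to absent. H2-K1 (chr17:33996017-34000347, minus strand) had 0, 3 and 4 counts in shIGF2BP1 libraries, against 0, 0 and 3 counts in shNT libraries, while H2-D1 had 2671 to 6598 counts in shIGF2BP1 and 3265 to 4699 counts in shNT libraries. Only 8.44% of its 53-base words were shared with another gene. H2-T23, the chain known as Qa-1, had 0, 2 and 3 counts in shIGF2BP1 and 4, 2 and 1 counts in shNT libraries. H2-Q4 had 0, 3 and 1 counts in shIGF2BP1 and 0 in each shNT library. Pooled over a group, the exact Poisson 95% limits put H2-K1 below 0.0552 FPKM in shIGF2BP1 and below 0.0308 FPKM in shNT cells. Such limits cover counting error only. The strain of M1 is not given in the sources used here, and class I heavy chains are highly polymorphic between strains, so a low count of 1 heavy chain is a statement about reads assigned to the reference gene. Of 17 further class I and class I-like heavy chains, 5 had enough reads for a test. Among the remaining 12, H2-M5 had 13, 57 and 5 counts in shIGF2BP1 libraries, against 3, 9 and 2 counts in shNT libraries, and the other 11 had at most 3 counts in any library. The ranges of H2-M5 overlapped, and shIGF2BP1 replicate 2 held most of its counts. Among the 5 tested, Fcgrt, the neonatal Fc receptor chain, which does not present peptides, averaged 49.96 FPKM in shIGF2BP1 and 65.7 FPKM in shNT libraries, a mean level above that of H2-D1 in shNT libraries.

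The 4 tested chains did not separate the groups. Their log2 fold changes (shIGF2BP1 over shNT) were 0.09 ± 0.28 for H2-D1, 0.06 ± 0.30 for H2-T22, 0.03 ± 0.25 for H2-M3 and -0.20 ± 0.24 for B2m (SE, n = 3 against 3), with edgeR adjusted p of 0.912 to 0.988. The 95% interval for B2m ran from -0.73 to 0.34, and that for H2-D1 from -0.53 to 0.71, so both held changes of either sign. The chains were high in 1 library of each group. The median log2 deviation of the 4 chains from their own means was 0.30 in shIGF2BP1 replicate 2 and 0.36 in shNT replicate 1, against -0.19 and -0.18 in the other shIGF2BP1 libraries and -0.20 and -0.12 in the other shNT libraries. Without shIGF2BP1 replicate 2, H2-D1, H2-T22 and H2-M3 all turned negative, at -0.25, -0.03 and -0.15.

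Markers of MHC class II and antigen-presenting cells moved with these chains in part. Of the 14 markers only Cd74, H2-DMa and H2-DMb1 had enough reads for a test, and their median deviation was highest in the same libraries, at 0.53 in shIGF2BP1 replicate 2 and 0.45 in shNT replicate 1. Cd74, the class II invariant chain, did not follow that order. It had 15.9, 79.7 and 25.2 CPM in shIGF2BP1 libraries, against 89.0, 43.1 and 158 CPM in shNT libraries, so it was highest in shNT replicate 3, where the class I chains were low. The summed level of the list was 32.2, 78.1 and 36.1 FPKM in shIGF2BP1 replicates 1, 2 and 3, against 82.8, 51.7 and 113 FPKM in shNT replicates 1, 2 and 3. Adgre1 had 0 counts in every library, and Ptprc and Ciita had at most 0.0365 CPM. Csf1r had 3, 2 and 19 counts in shIGF2BP1 libraries, against 0, 4 and 3 counts in shNT libraries. The leukocyte markers Adgre1 and Ptprc were thus at or near 0, while the part of the class II genes in the class I values was not tested.

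**Figure D1:**
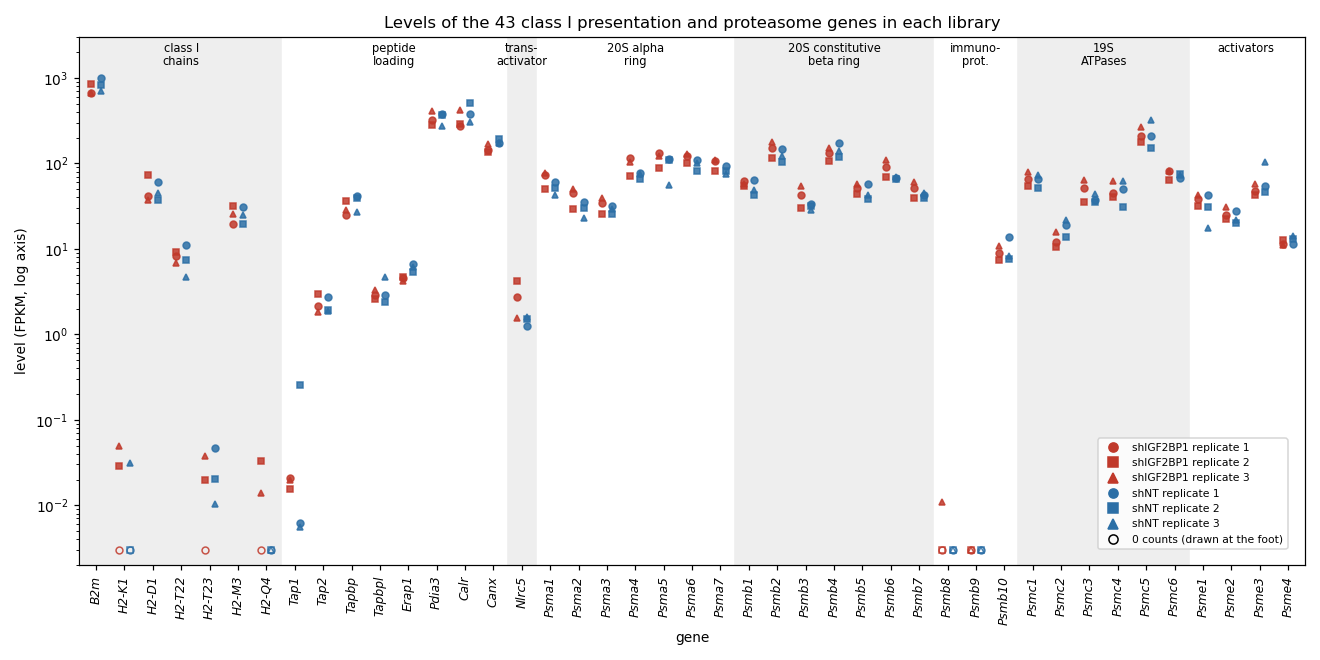
Levels of the 43 genes (FPKM, log axis, 1 point per library, shIGF2BP1 left of shNT in each column, shapes give the replicate, and open points at the foot stand for 0 counts). B2m, Pdia3 and Calr lie highest, and H2-K1, H2-T23, H2-Q4, Tap1, Psmb8 and Psmb9 lie far below the rest.

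The 2 chains of the peptide transporter were expressed very unequally. Tap2, which encodes 1 chain of the TAP heterodimer, had 2.17, 2.93 and 1.82 FPKM in shIGF2BP1 libraries, against 2.71, 1.95 and 1.86 FPKM in shNT libraries. Tap1, its partner, had 3, 3 and 3 counts in shIGF2BP1 libraries, against 1, 47 and 1 counts in shNT libraries. In level, Tap1 was 0.00530 to 0.0110 times Tap2 in shIGF2BP1 libraries, and 0.00227, 0.129 and 0.00296 times Tap2 in shNT replicates 1, 2 and 3. The 47 counts of shNT replicate 2 made up nearly all of the 49 in its group. Without the filter on low counts edgeR gave no call for Tap1, and DESeq2 gave a log2 fold change of -2.23 with adjusted p = 0.737.

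Tap1 lies in a stretch of the class II region that was at or near 0 counts in most libraries, between the expressed genes H2-DMb1 and Tap2. On GRCm38 Tap1 spans chr17:34187553-34197225 on the plus strand, with Psmb9 (chr17:34181987-34187764) on the minus strand overlapping its start, Psmb8 (chr17:34197721-34201454) downstream and Tap2 (chr17:34203527-34216321) beyond that. Psmb9 had 0 counts in all 6 libraries, and Psmb8 had 1 count in shIGF2BP1 replicate 3 and 0 elsewhere. Upstream, H2-DMb1, a class II peptide editor, had 20.8 FPKM in shIGF2BP1 and 20.5 FPKM in shNT cells on average, and Brd2, a ubiquitous bromodomain gene, had 38.7 FPKM in shIGF2BP1 and 40.9 FPKM in shNT cells. Low counts were not particular to this stretch. Upstream H2-Oa and H2-DMb2 also averaged below 0.1 FPKM in both groups. So did H2-Ob, H2-Ab1, H2-Aa, H2-Eb1 and H2-Eb2, the protein-coding genes beyond Tap2 within 150 kb of the Tap1 start. Of the exonic length of Tap2, 18.5% lies opposite another gene, and how strand entered the counting is not given in the sources used here. The 2 neighbours of unlike expression, Psmb8 and Tap2, start 10.2 and 16.0 kb from the Tap1 start.

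**Figure D2:**
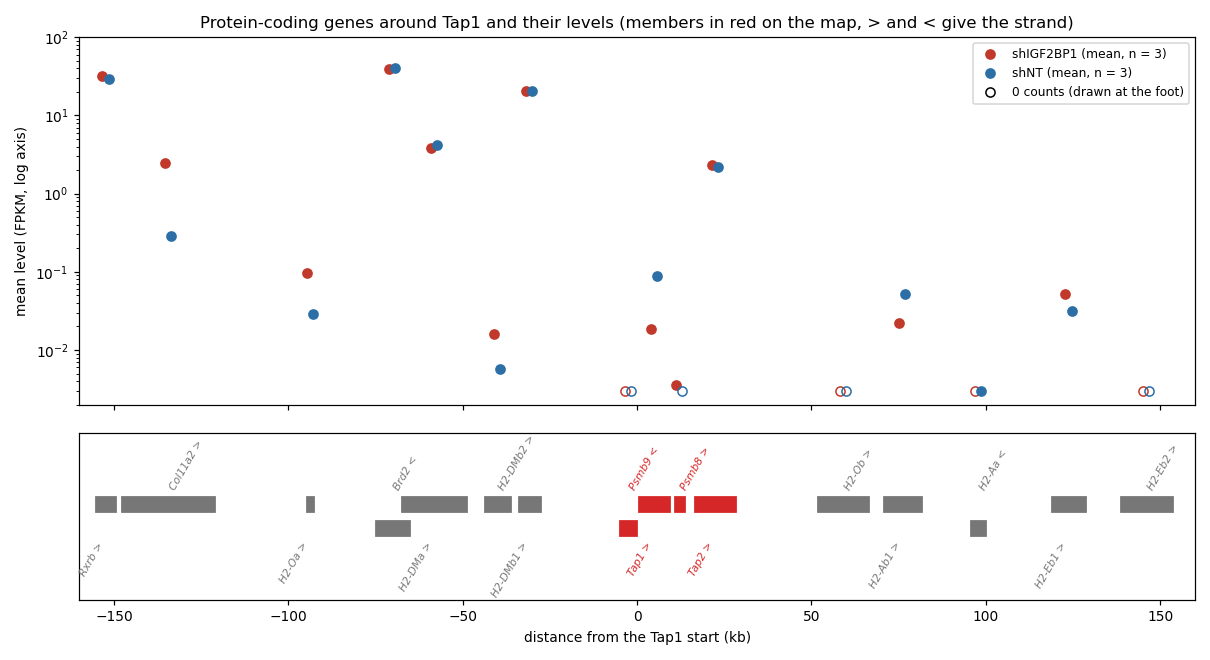
Mean level (FPKM, log axis, n = 3 libraries per group, shIGF2BP1 drawn left of shNT) of protein-coding genes against distance from the Tap1 start, with a map of the genes below. Psmb9, Tap1 and Psmb8 lie below 0.1 FPKM, as do H2-Oa, H2-DMb2, H2-Ob, H2-Ab1, H2-Aa, H2-Eb1 and H2-Eb2. Tap2, H2-DMa, H2-DMb1, Brd2 and Rxrb lie above 2 FPKM, and Col11a2 lies at 2.45 FPKM in shIGF2BP1 and 0.286 FPKM in shNT.

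Tapasin and the chaperones of the loading complex were well expressed, while TAP, described above, and the tapasin relative Tapbpl were lower. Tapbp, which encodes tapasin, the bridge between TAP and the heavy chain, had 25.2, 36.1 and 28.7 FPKM in shIGF2BP1 libraries, against 41.2, 39.6 and 26.8 FPKM in shNT libraries. Tapbpl, which encodes the related editor TAPBPR, had 2.87, 2.61 and 3.27 FPKM in shIGF2BP1 libraries, against 2.85, 2.42 and 4.68 FPKM in shNT libraries. In both the groups overlapped, and tapasin transcripts exceeded those of its relative by 8.76 to 13.9 times in shIGF2BP1 and by 5.72 to 16.4 times in shNT libraries. Of the exonic length of Tapbp, 29.0% overlaps Gm19412 or Zbtb22, and 22.6% of its 53-base words were shared. For Tapbpl the share of words was 3.39%, with no exonic overlap, so the ratio of the pair is uncertain. The general chaperones of the complex were among the most abundant transcripts of the cell. Calr, for calreticulin, had 276, 291 and 419 FPKM in shIGF2BP1 libraries, against 375, 508 and 304 FPKM in shNT libraries. Pdia3, for ERp57, had 324, 279 and 413 FPKM in shIGF2BP1 libraries, against 382, 370 and 272 FPKM in shNT libraries. Calr stood above 99.3% and Pdia3 above 99.2% of the genes tested, and in both the groups overlapped.

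Erap1 and Canx were the members whose shIGF2BP1 libraries all lay below the shNT libraries. Erap1, the aminopeptidase that trims peptides in the endoplasmic reticulum, had 4.58, 4.69 and 4.19 FPKM in shIGF2BP1 libraries, against 6.71, 5.37 and 6.11 FPKM in shNT libraries. Its log2 fold change was -0.43 ± 0.20 (SE, n = 3 against 3, edgeR adjusted p = 0.703). Canx, for the chaperone calnexin that holds new heavy chains, had 144, 136 and 168 FPKM in shIGF2BP1 libraries, against 173, 191 and 175 FPKM in shNT libraries. Its log2 fold change was -0.27 ± 0.23 (SE, n = 3 against 3, edgeR adjusted p = 0.873). Among the 37 tested members 2 did not overlap in this direction, where 5.59% of all 13445 genes tested did. Tapbp at -0.26 ± 0.23, Calr at -0.27 ± 0.29, Tapbpl at -0.19 ± 0.34 and Pdia3 at -0.01 ± 0.27 were also on the negative side, and Tap2 was at 0.09 ± 0.32 (log2 fold change ± SE). The 7 tested loading genes thus had 6 negative estimates with a median of -0.26, where all genes tested had 6925 negative and 6520 positive estimates with a median of -0.01. By library their median log2 deviation was -0.18, -0.22 and 0.04 in shIGF2BP1 replicates 1, 2 and 3. It was 0.19, 0.14 and -0.22 in shNT replicates 1, 2 and 3, so the groups overlapped. All 7 were read from the same 6 libraries, so their shared sign is no replication of the comparison. None of the 7 passed the threshold.

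Hspa5, the endoplasmic reticulum chaperone BiP, lay in the same direction, though its groups overlapped. It had 900.0, 998 and 1517 CPM in shIGF2BP1 libraries, against 1432, 1923 and 2090.4 CPM in shNT libraries, a log2 fold change of -0.67 ± 0.30 (SE, n = 3 against 3, edgeR adjusted p = 0.687). Sec61a1, a channel subunit of the same membrane, was at -0.37 with adjusted p = 0.781. Among the 12 cytosolic peptidases and quality control factors examined with them, 7 were positive and 5 negative, with a median log2 fold change of 0.09 and no call.

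Nlrc5 had the largest estimated change of the 37 tested genes. The gene (chr8:94434356-94527272, plus strand) encodes the activator that assembles on class I promoters. It had 607, 1255 and 357 counts, or 2.73, 4.19 and 1.53 FPKM, in shIGF2BP1 libraries, against 319, 432 and 453 counts, or 1.27, 1.49 and 1.61 FPKM, in shNT libraries. Replicates 1 and 2 of shIGF2BP1 lay above all shNT libraries, and replicate 3 lay within their range. The log2 fold change was 0.95 ± 0.34 (SE, n = 3 against 3), with a 95% interval of 0.20 to 1.70, an edgeR p of 0.0176 and an adjusted p of 0.620. DESeq2 gave an adjusted p of 0.253. Without shIGF2BP1 replicate 2 the estimate was 0.56.

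Nlrc5 was the 1 member with an unadjusted p under 0.05 on the higher side, where 3.17% of all genes tested had one, and no member had one on the lower side, where 3.99% of all genes did. At the adjusted threshold of 0.05 edgeR called 0 of the 37 members and 3 genes in all, or 0.0223%. DESeq2 called 0 members and 100 genes in all, and limma-voom 0 members and 1 gene in all. Values for the 4 class I chains, given above, stood on either side of 0, while Nlrc5 was highest in shIGF2BP1 replicate 2, the library in which H2-D1 and H2-M3 were also highest. In shNT replicate 1, where H2-D1 was next highest, Nlrc5 was at its lowest.

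Among 21 regulators of class I transcription, 20 were tested, with 8 positive and 12 negative estimates, a median of -0.13 and no call. Irf2, an interferon regulatory factor that binds interferon response elements, had 43.1, 53.8 and 52.3 CPM in shIGF2BP1 libraries, against 60.1, 92.7 and 78.6 CPM in shNT libraries. The estimate on the log2 scale was -0.63 ± 0.22 (SE, n = 3 against 3, edgeR adjusted p = 0.606). Its groups did not overlap. Mr1 and Cd1d1, class I-like chains that present metabolites and lipids, were at -0.40 and 0.63 on the log2 scale with adjusted p of 0.760 and 0.809.

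**Figure D3:**
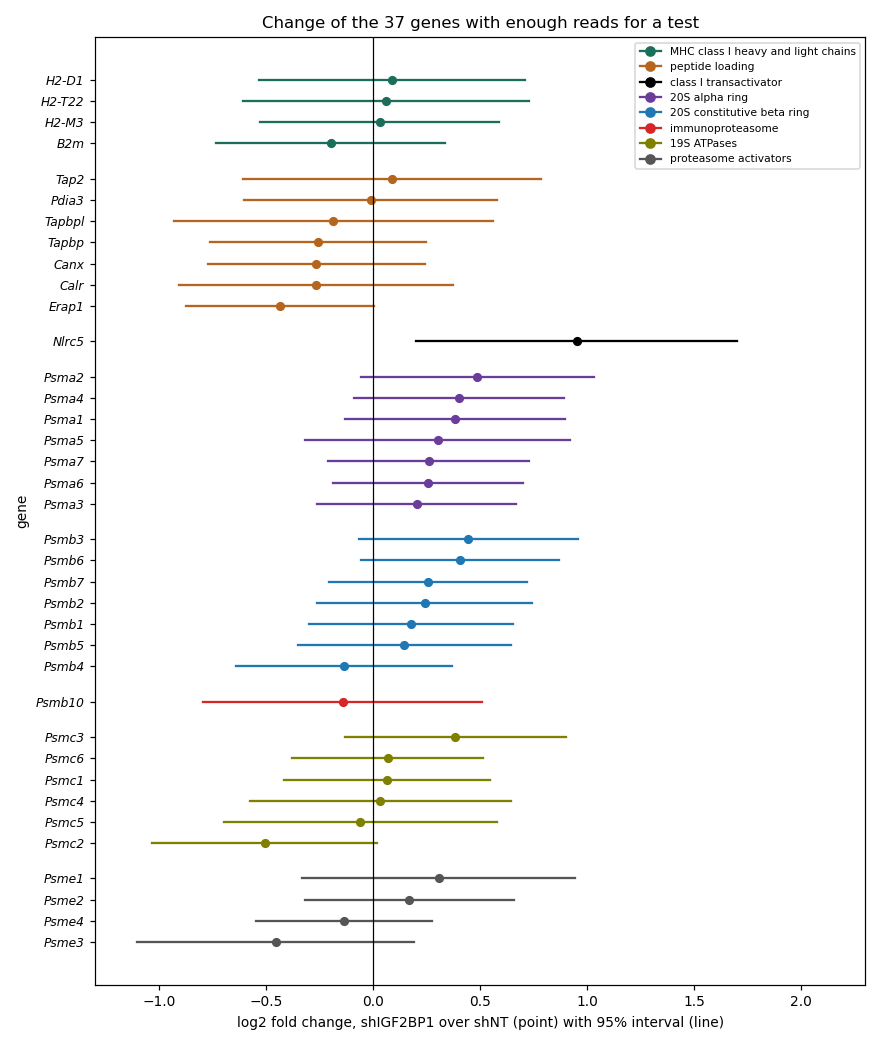
Log2 fold change (shIGF2BP1 over shNT, point) with its 95% interval (line) for the 37 tested genes, grouped by role. The interval excludes 0 for Nlrc5 alone, before adjustment over all genes, and 13 of the 14 constitutive 20S subunits lie to the right of 0.

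Of the 3 immunoproteasome subunits, 1 was expressed, beside constitutive subunits that all were. Psmb8 (known as beta 5i) totalled 1 count in shIGF2BP1 and 0 in shNT cells, and Psmb9 (beta 1i) totalled 0 in both. A count of 0 allows up to 3 counts, which is 0.0560% to 0.0656% of the summed Psmb8 and Psmb5 level in shIGF2BP1 libraries and 0.0520% to 0.0679% in shNT libraries. For Psmb9 beside Psmb6 it is 0.0275% to 0.0348% in shIGF2BP1 and 0.0359% to 0.0408% in shNT libraries. No difference between groups can be computed for either pair, since both were at or under that floor.

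Psmb10 (beta 2i, chr8:105935735-105938444, minus strand) was the exception among the immunoproteasome genes. It had 8.93, 7.39 and 10.8 FPKM in shIGF2BP1 libraries, against 13.9, 7.66 and 8.28 FPKM in shNT libraries. Its constitutive counterpart Psmb7 had 51.5, 39.8 and 61.1 FPKM in shIGF2BP1 libraries, against 43.1, 39.4 and 45.2 FPKM in shNT libraries. Psmb10 was thus 14.8%, 15.7% and 14.97% of the pair in shIGF2BP1 libraries, against 24.4%, 16.3% and 15.5% in shNT libraries. The shNT libraries other than replicate 1 lay close to the shIGF2BP1 libraries. The log2 ratio of Psmb10 to Psmb7 averaged -2.49 ± 0.05 in shIGF2BP1 and -2.15 ± 0.45 in shNT libraries (SD, n = 3 each), a difference of -0.34. The exact two-sided permutation test gave p = 0.2, where 3 against 3 libraries allow no p below 0.1. Without shNT replicate 1 the difference was -0.08.

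The log2 fold change of Psmb10 alone was -0.14 ± 0.30 (SE, n = 3 against 3, edgeR adjusted p = 0.950), and without shNT replicate 1 it was 0.18. None of the 53-base words of Psmb10 was shared with another gene, and Psmb8 and Psmb9 shared 11.5% and 4.1%. For the constitutive catalytic subunits, Psmb5 (beta 5, the chymotrypsin-like site) had 51.6, 43.5 and 57.7 FPKM in shIGF2BP1 libraries, against 57.5, 38.3 and 42.2 FPKM in shNT libraries. Of its words 51.6% were shared, most with Gm3375, so part of its reads may have been lost or split. Psmb6 (beta 1, the caspase-like site) had 89.8, 69.2 and 109 FPKM in shIGF2BP1 libraries, against 67.6, 65.7 and 68.9 FPKM in shNT libraries. It was the 1 member whose shIGF2BP1 libraries all lay above the shNT libraries, where 6.06% of all genes tested did so. The gap between the highest shNT and the lowest shIGF2BP1 library was narrow, and the log2 fold change was 0.40 ± 0.21 (SE, n = 3 against 3, edgeR adjusted p = 0.754).

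**Figure D4:**
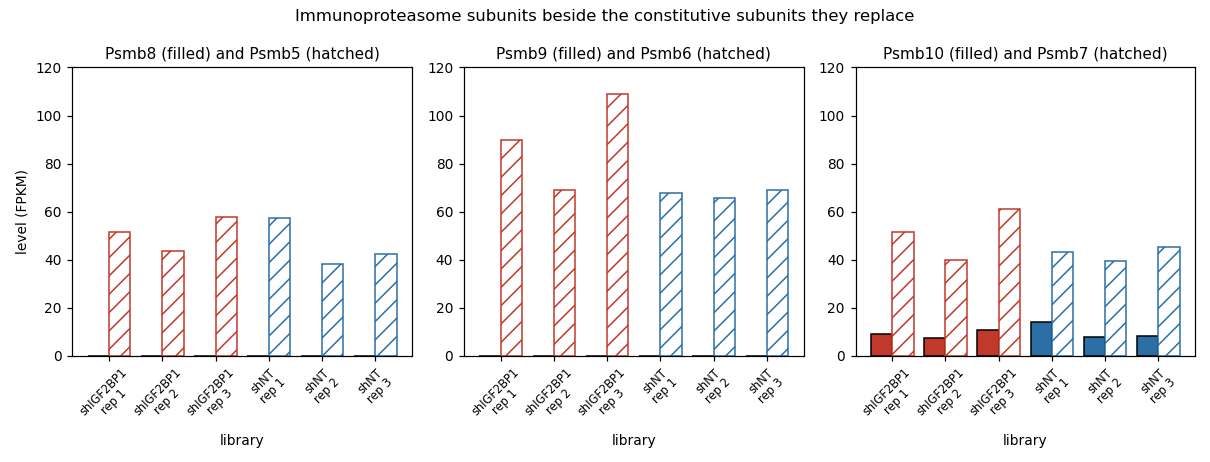
Levels (FPKM, 1 pair of bars per library) of each immunoproteasome subunit (filled) beside the constitutive subunit it replaces (hatched), shIGF2BP1 in red and shNT in blue. Psmb8 and Psmb9 are at the axis in all 6 libraries, and Psmb10 lies between 7.39 and 13.9 FPKM beside Psmb7 at 39.4 to 61.1 FPKM.

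The 14 constitutive 20S subunits were expressed at unequal levels. Mean levels over the 6 libraries ran from 31.0 FPKM for Psma3 to 137 FPKM for Psmb2, a span of 4.41 times. In the alpha ring, the gate that admits substrates, the order of mean levels from high to low by merged exons was Psma6, Psma5, Psma7, Psma4, Psma1, Psma2 and Psma3. In the beta ring, which holds the catalytic sites, it was Psmb2, Psmb4, Psmb6, Psmb1, Psmb5, Psmb7 and Psmb3. These orders turn with the length used. By the longest transcript the alpha order was Psma7, Psma4, Psma1, Psma6, Psma5, Psma2 and Psma3, with Psma7 at 185 FPKM and Psma1 at 147 FPKM in place of 91.2 and 59.6 FPKM. The beta order was then Psmb4, Psmb2, Psmb6, Psmb1, Psmb3, Psmb7 and Psmb5, with Psmb4 at 226 FPKM, Psmb6 at 152 FPKM and Psmb5 at 48.5 FPKM. By merged exons Psmb2 and Psmb4 both averaged 137 FPKM, and at the other end Psma3, Psma2 and Psmb3 averaged 31.0, 35.4 and 36.9 FPKM. Psma5 shared 48.1% of its words with Gm8394 and other genes. The least abundant of the 14 stood above 86.1% of all genes tested, while Psmb10 stood above 57.0% and Tap2 above 24.8%.

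No constitutive subunit passed the threshold between groups. The 7 alpha subunits were all on the positive side, with log2 fold changes of 0.20 to 0.49 and a median of 0.30. Of the 7 beta subunits 6 were positive, with a median of 0.24, and Psmb4 was at -0.14 ± 0.23 (SE, n = 3 against 3). The 5 largest estimates were those of Psma2 at 0.49 ± 0.25, Psmb3 at 0.45 ± 0.23, Psmb6 (described above) at 0.40 ± 0.21, Psma4 at 0.40 ± 0.22 and Psma1 at 0.38 ± 0.23 (log2 fold change ± SE, n = 3 against 3, edgeR adjusted p of 0.750 to 0.789). Psma2 had 44.7, 29.3 and 50.1 FPKM in shIGF2BP1 libraries, against 35.01, 30.3 and 23.2 FPKM in shNT libraries. Psma4 had 115, 72.0 and 103 FPKM in shIGF2BP1 libraries, against 78.2, 65.9 and 75.3 FPKM in shNT libraries. In both, shIGF2BP1 replicates 1 and 3 were high and replicate 2 lay among the shNT values.

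That pattern held for most of the core. The median log2 deviation of the 14 subunits from their own means was 0.21, -0.21 and 0.34 in shIGF2BP1 replicates 1, 2 and 3, against 0.04, -0.23 and -0.16 in shNT replicates 1, 2 and 3. The subunits were therefore high together in 2 shIGF2BP1 libraries and low together in the third, which stood at the level of shNT replicates 2 and 3. All 14 were read from the same 6 libraries, so the agreement among subunits is no replication of the comparison. Without shIGF2BP1 replicate 2 the median was 0.46 for the alpha ring and 0.41 for the beta ring. Without shIGF2BP1 replicate 3 it was 0.24 and 0.10, and without shNT replicate 2 it was 0.33 and 0.12.

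Levels of the other core subunits are given as means over 3 libraries with their SD. In the alpha ring, Psma1 averaged 67.5 ± 14.9 FPKM in shIGF2BP1 and 51.8 ± 9.31 FPKM in shNT libraries. Psma3 averaged 33.2 ± 6.99 FPKM in shIGF2BP1 and 28.8 ± 2.80 FPKM in shNT libraries, and Psma5 averaged 115 ± 22.4 FPKM in shIGF2BP1 and 93.0 ± 32.3 FPKM in shNT libraries. Psma6 averaged 117 ± 14.4 FPKM in shIGF2BP1 and 98.0 ± 14.9 FPKM in shNT libraries, and Psma7 averaged 99.4 ± 15.3 FPKM in shIGF2BP1 and 83.0 ± 8.86 FPKM in shNT libraries. In the beta ring, Psmb1 averaged 58.2 ± 3.79 FPKM in shIGF2BP1 and 51.5 ± 10.8 FPKM in shNT libraries. Psmb2 averaged 148 ± 32.2 FPKM in shIGF2BP1 and 126 ± 22.7 FPKM in shNT libraries. Psmb3 averaged 42.6 ± 12.2 FPKM in shIGF2BP1 and 31.2 ± 2.61 FPKM in shNT libraries, and Psmb4 averaged 130.3 ± 23.01 FPKM in shIGF2BP1 and 143 ± 26.7 FPKM in shNT libraries. In each of these 9 genes the groups overlapped. Without shNT replicate 3, where Psma5 was at 55.7 FPKM against 111 and 113 FPKM in the other shNT libraries, its log2 fold change was 0.04 instead of 0.30.

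The 19S cap, which recognises and unfolds ubiquitinated proteins, had ATPases of very different levels. Psmc5 averaged 219 ± 45.9 FPKM in shIGF2BP1 and 228 ± 86.2 FPKM in shNT libraries, and Psmc2 averaged 12.8 ± 2.79 FPKM in shIGF2BP1 and 18.2 ± 4.22 FPKM in shNT libraries (SD, n = 3 each). These were the most and the least abundant of the 6. Psmc2 had 12.1, 10.5 and 15.9 FPKM in shIGF2BP1 libraries, against 19.1, 13.6 and 21.9 FPKM in shNT libraries, and its log2 fold change was -0.51 ± 0.24 (SE, n = 3 against 3, edgeR adjusted p = 0.721). The groups overlapped by 1 library on each side. Psmc3 went the other way, at 0.38 ± 0.24, and had 51.6, 35.7 and 64.8 FPKM in shIGF2BP1 libraries, against 37.3, 35.8 and 43.4 FPKM in shNT libraries. Psmc1 averaged 67.0 ± 12.8 FPKM in shIGF2BP1 and 64.0 ± 11.3 FPKM in shNT libraries. Psmc4 averaged 49.2 ± 11.6 FPKM in shIGF2BP1 and 48.1 ± 16.4 FPKM in shNT libraries, and Psmc6 averaged 76.0 ± 10.7 FPKM in shIGF2BP1 and 72.5 ± 3.90 FPKM in shNT libraries. Their log2 fold changes were 0.06 for Psmc1, 0.03 for Psmc4 and 0.07 for Psmc6, and that of Psmc5 was -0.06. The median of the 6 was 0.05, and it was -0.13 without shIGF2BP1 replicate 3 and -0.14 without shNT replicate 2.

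The 18 other subunits and partners of the cap were examined beside them. Of these 16 were positive and 2 negative, with a median log2 fold change of 0.28, and none was called. Adrm1, a ubiquitin receptor of the cap, had 97.6, 92.8 and 111 CPM in shIGF2BP1 libraries, against 75.7, 57.2 and 69.2 CPM in shNT libraries. Its log2 fold change was 0.58 ± 0.19 (SE, n = 3 against 3, edgeR adjusted p = 0.602), and the groups did not overlap. Psmd13 was at 0.58 ± 0.23 with an edgeR adjusted p of 0.684, and its groups overlapped. Without shIGF2BP1 replicate 3 the median was 0.10, with 12 positive and 6 negative. By library the median deviation was 0.17, -0.17 and 0.40 in shIGF2BP1 replicates 1, 2 and 3, against -0.11, -0.08 and -0.20 in shNT replicates, so the order of shIGF2BP1 libraries was that of the 20S core.

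**Figure D5:**
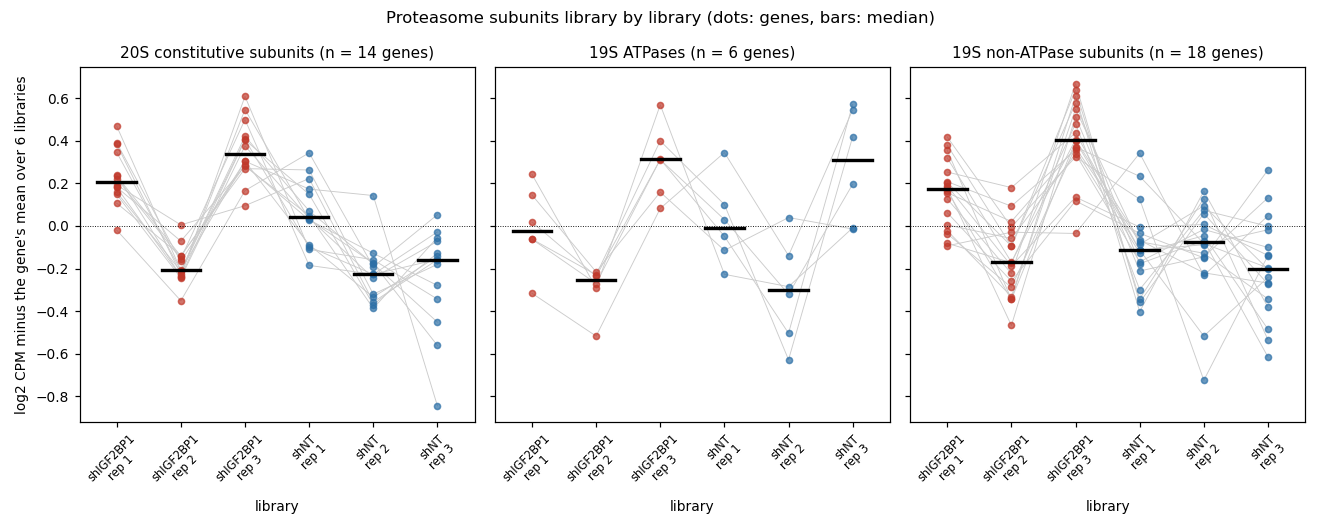
Log2 CPM minus each gene's mean over 6 libraries for 14 constitutive 20S subunits, 6 19S ATPases and 18 other 19S subunits (dots joined by gene, bar at the median). The 20S medians are 0.21, -0.21 and 0.34 in shIGF2BP1 libraries and 0.04, -0.23 and -0.16 in shNT libraries, and shIGF2BP1 replicate 2 lies low in all 3 panels.

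No activator separated the groups. Psme1 and Psme2, the interferon-inducible PA28 alpha and beta subunits that open the core and form 1 ring together, had log2 fold changes of 0.31 ± 0.29 and 0.17 ± 0.22 (SE, n = 3 against 3). Without shNT replicate 3 that of Psme1 was 0.03, and without shNT replicate 1 it was 0.64. That of Psme2 was 0.02 without shIGF2BP1 replicate 3 and 0.07 without shNT replicate 2. Psme1 had 38.0, 31.9 and 42.7 FPKM in shIGF2BP1 libraries, against 42.5, 30.9 and 17.6 FPKM in shNT libraries. By merged exons its ratio to Psme2 was 1.36 to 1.52 in shIGF2BP1 libraries, against 1.52, 1.54 and 0.798 in shNT replicates 1, 2 and 3. By the longest transcript the order of the pair turned, with mean levels over the 6 libraries of 37.7 FPKM for Psme1 and 45.5 FPKM for Psme2. Psme2 averaged 26.3 ± 4.48 FPKM in shIGF2BP1 and 23.4 ± 4.10 FPKM in shNT libraries (SD, n = 3 each), and 27.5% of its words were shared, most with Psme2b.

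Psme3, the nuclear PA28 gamma, had 47.8, 42.9 and 58.1 FPKM in shIGF2BP1 libraries, against 54.8, 46.0 and 103 FPKM in shNT libraries. Its log2 fold change of -0.46 ± 0.29 (SE, n = 3 against 3, edgeR adjusted p = 0.802) was -0.02 without shNT replicate 3. Psme4, which encodes PA200, averaged 11.7 ± 0.897 FPKM in shIGF2BP1 and 12.9 ± 1.53 FPKM in shNT libraries (SD, n = 3 each), at -0.14 ± 0.19 on the log2 scale. In each of the 4 activators the groups overlapped. The interferon-inducible PA28 genes were thus expressed at 17.6 to 42.7 FPKM in cells whose Psmb8 and Psmb9 counts were at the floor.

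Assembly factors and the NRF1 arm that raises proteasome genes when the proteasome is inhibited showed no common direction. Of 10 genes tested, 5 were positive and 5 negative, with a median log2 fold change of -0.03 and no call. Nfe2l1, which encodes the factor NRF1, had 277, 388 and 457 CPM in shIGF2BP1 libraries, against 415, 571 and 695 CPM in shNT libraries. The groups overlapped, and the log2 fold change was -0.58 ± 0.27 (SE, n = 3 against 3, edgeR adjusted p = 0.722). Ngly1, the deglycosylase that activates NRF1, had 22.6, 18.4 and 20.2 CPM in shIGF2BP1 libraries, against 23.3, 30.8 and 33.4 CPM in shNT libraries, and its groups did not overlap. The log2 fold change was -0.51 ± 0.23 (SE, n = 3 against 3, edgeR adjusted p = 0.695). Over the 43 genes, 24 of the 37 tested were positive and 13 negative, with a median log2 fold change of 0.09. Within groups the median SD of the 37 genes was 0.31 log2 units, against 0.33 over all genes tested. Of the 43 genes 12 lie on chromosome 17.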

How the data were processed

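Poly-A RNA was sequenced from 6 libraries with a stranded kit in paired reads of 53 cycles, per the labels' protocols. HISAT2 2.1.0, HTSeq, bcl2fastq and the build GRCm38 are listed in the submitters' processing notes. Annotation, strand setting and read filters were not given in the sources used here. The authors deposited raw read counts per gene, 1 column per library, with 43721 rows, 92 of them spike-ins at 0. Symbols and coordinates came from GENCODE M21 on GRCm38, which matched 42548 IDs, and the 1081 unmatched IDs held 0.111% of counts. Promoters are RefSeq windows.

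After TMM scaling, edgeR 4.0.16 under R 4.3.3 compared the groups (robust quasi-likelihood F test, two-sided, no covariates) over the 13445 genes that filterByExpr kept (minimum count 10, minimum total 15). P-values were Benjamini-Hochberg adjusted over all of them, with a threshold of 0.05. FPKM is CPM divided by kilobases of merged exons, or, as an alternative, of the longest transcript. Pair ratios used a pseudocount of 0.5. DESeq2 1.42.0, limma-voom (limma 3.58.1), other scalings and filters, a replicate block and each library left out were alternatives. Counting limits take a count of 0 as up to 3. The test was tried on simulated counts. Every member is named, with up to 2 genes of smallest p from each of 5 pathway lists. Some genes these rules and lists include are not reported here. Members and lists were chosen with earlier results of these data known. Total counts were 25119655 to 35373076 per library. No pair of libraries was a duplicate: per gene, chi-square was 46.8 or more for every pair.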

Additional observations from a re-analysis of the deposited data

How the results depend on the processing

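No member was called by edgeR under any scaling, filter, block or left-out library run, nor by DESeq2 or limma-voom, with the smallest adjusted p of a member between 0.117 (no filter on low counts) and 0.9998 (without shIGF2BP1 replicate 1). The count of called genes was 3, and it was 138 with no filter, 100 with DESeq2, 18 with the replicate block, 1 with a mean of at least 5 CPM, 1 with limma-voom, 1 at an adjusted p of 0.01, and 1 to 5 with 1 library left out. The cause was not tested. Whether replicate numbers pair the libraries was not settled. Same-numbered deviations correlated at 0.19, -0.09 and 0.28, and different-numbered ones at -0.37 to 0.22. With the replicate block the smallest edgeR adjusted p of a member was 0.492. Of 481 recomputed member fold changes, 456 kept their direction and 25 turned, in 11 of 37 genes that lay near 0. Leaving out 1 library gave log2 fold changes of H2-D1 -0.25 to 0.31, H2-T22 -0.20 to 0.42, H2-M3 -0.15 to 0.21, Tap2 -0.11 to 0.28, Tapbpl -0.37 to 0.14, Pdia3 -0.18 to 0.12, Psmb4 -0.26 to 0.011, Psmb10 -0.30 to 0.18, Psmc1 -0.091 to 0.20, Psmc4 -0.21 to 0.28, Psmc5 -0.28 to 0.27, Igf2bp1 -1.24 to 0.76. Sign turns elsewhere were Pdia3 at 0.067 with library size only and at 0.0044 with the CPM filter, Psmc5 at 0.0093 with library size only, and Igf2bp1 at -0.24 with limma-voom and -0.047 under the replicate block. The span of 20S levels was 5.31 times by longest transcript. List medians moved by less than the spread between libraries under each alternative, though with 1 library left out that of the class I chains ran from -0.20 to 0.26, that of the 19S ATPases from -0.14 to 0.23 and that of the activators from -0.04 to 0.05. For the Psmb10 to Psmb7 ratio, leaving out 1 library gave differences of -0.49 to -0.08. Library size only moved the median of all genes to 0.07.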
